A study of Mus musculus with 3 samples.

Results

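The small leucine-rich proteoglycans *Fmod* and *Optc* were followed in RNA-seq libraries of the suprarenal aorta from mice infused with angiotensin II (AngII) or saline. The members were every entry of the deposited gene lists named *Fmod* or *Optc*, and 9 further genes of the family (*Dcn*, *Bgn*, *Lum*, *Ogn*, *Prelp*, *Omd*, *Aspn*, *Kera*, and *Epyc*) wherever a list held them. Of these 11 genes, 3 were listed (*Fmod*, *Optc*, and *Lum*), among 1238 different entries over all lists. *Fmod* and *Optc* were selected on their low values in the aneurysm library, so that their direction there is a description and not a finding.

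The data held 3 libraries, 1 per cohort, all from male C57BL/6 mice null for apoE (apolipoprotein E, a carrier of cholesterol-rich lipoproteins) that were 12 weeks old at surgery. The strain is C57BL/6 in the labels and C57BL/6J in the methods of the study. The AngII AAA cohort received AngII by pump and was harvested within 24 h of the diagnosis of a dissecting abdominal aortic aneurysm (AAA). The AngII No AAA cohort received AngII, had no aneurysm, and was harvested on day 10 after pump implantation. The Saline cohort received saline by pump and was harvested on the same day. Controls and infused mice therefore all lacked apoE, and aneurysm status and time of harvest cannot be told apart in the AngII AAA library. The libraries are called AAA, No AAA, and Saline below, and a comparison names the library of the numerator first. Each library pooled RNA from several animals, so that the spread between animals could not be measured, no test was made, and no difference below has a replicate check.

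Small leucine-rich proteoglycans are secreted matrix proteins built around a curved stack of leucine-rich repeats. Many of them bind collagen and affect how fibrils assemble, and several bind growth factors such as TGF-beta. *Fmod* encodes fibromodulin, a class II member that binds fibrillar collagen and is best known from cartilage, tendon, and ligament. *Optc* encodes opticin, a class III member first described in the vitreous of the eye.

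Both genes lie on chromosome 1. In the coordinates of the deposited lists, whose build is mm9 by the submitters' processing notes, the *Optc* entry ran from 135793770 to 135804576 and the *Fmod* entry from 135934091 to 135944854. The gap between the entries was 129515 bp. In the RefSeq gene table for GRCm38.p6, 3 genes lay between them: *Prelp*, which encodes another class II member of the family, the noncoding RNA *Bmncr*, and the pseudogene *Gm18970*. None of these symbols was listed in any comparison.

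The sequences upstream of the RefSeq start sites are shown because both genes were low in the same library and share a chromosomal neighbourhood. Each runs 5′ to 3′ on the strand of its gene and holds the 250 bases before the start site, from RefSeq on GRCm38.p6, at chr1:134037004-134037253 on the plus strand for *Fmod* and chr1:133908000-133908249 on the minus strand for *Optc*. Capitals mark matches, on either strand, to 2 of the motifs searched: CAGAC, the letters of a SMAD binding element, and CANNTG, the E-box.
Fmod: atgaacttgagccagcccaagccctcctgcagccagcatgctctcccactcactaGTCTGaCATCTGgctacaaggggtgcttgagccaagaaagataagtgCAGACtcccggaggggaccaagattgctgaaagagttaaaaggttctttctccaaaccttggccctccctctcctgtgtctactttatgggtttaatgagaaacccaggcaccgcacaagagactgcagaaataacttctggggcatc
Optc: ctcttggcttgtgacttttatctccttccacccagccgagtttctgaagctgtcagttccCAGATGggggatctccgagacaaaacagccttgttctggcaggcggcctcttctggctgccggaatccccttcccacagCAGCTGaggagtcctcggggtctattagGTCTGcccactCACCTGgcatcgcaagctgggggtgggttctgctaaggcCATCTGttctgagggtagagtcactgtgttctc

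The *Fmod* sequence held 2 matches to CAGAC, with first bases at -195 and -148 from the start site, and 1 match to CANNTG at -189. The *Optc* sequence held 1 match to CAGAC at -83 and 4 matches to CANNTG, at -190, -111, -72, and -33. These letters are common. Among 32536 distinct upstream sequences of the same length in the table, CAGAC was found in 42.2% and CANNTG in 66.2%. No match to TATAAA (12.3% of all sequences), GGGCGG (33.0%), TGANTCA (6.73%), or the SRF CArG box (1.48%) was found in either window, with both strands searched. GC content was 51.2% for *Fmod* and 56.8% for *Optc*, against a median of 52.4%. A match describes the letters and was not tested as a binding site.

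The annotation differs between sources for *Optc*. GENCODE M21, on GRCm38, placed the upstream end of *Optc* at 133907999 and gave 5 start sites for its transcripts, down to 133901327, whereas the RefSeq gene record reached to 133909688. The *Optc* window printed above therefore lies before the outermost GENCODE start and inside the RefSeq span. An antisense gene, *Gm15851*, overlapped the *Optc* gene by 1469 bp on the opposite strand, with 0 exonic bases shared. Whether the counting used strand is not given, and any effect of this overlap on the *Optc* level was not tested. For *Fmod*, 2 start sites were given, at 134037254 and 134037496, and no other gene overlapped it.

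*Optc* and *Fmod* were both lower in the AAA library than in the No AAA library. This comparison sets AngII-infused aortas with and without aneurysm side by side, with a rule for the time of harvest that differed between them. All values are in FPKM (sequenced fragments scaled to both transcript length and mapped reads, so that a level is per length). *Optc* was at 1.95 FPKM in the AAA library and 14.9 FPKM in the No AAA library, 7.62-fold lower (log2 ratio -2.93). *Fmod* was at 9.66 and 41.7 FPKM, 4.32-fold lower (log2 ratio -2.11). In both genes the AAA library was the lower of the pair, with the larger fold in *Optc*. Ordered from the most negative log2 ratio, *Optc* was number 15 and *Fmod* number 32 of 600 listed entries, after 11 entries listed at 0 in the AAA library.

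The same direction was seen for AAA against Saline. *Optc* was at 2.02 FPKM in the AAA library and 18.6 FPKM in the Saline library, 9.23-fold lower (log2 ratio -3.21), and was number 20 of 715 listed entries. *Fmod* was at 9.98 and 32.7 FPKM, 3.28-fold lower (log2 ratio -1.71), and was number 104. The AAA library entered both comparisons, so the low value in that library is the same measurement seen against different partners. In this comparison, 18 entries were listed at 0 in the AAA library.

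The lists held only entries with an unadjusted p-value by the authors under 0.05, and most entries were higher in the first-named library. A fold over 2 in the lower direction was found for 126 of the 600 entries of AAA against No AAA (21%), where both *Fmod* and *Optc* had one. Against Saline this was 110 of 715 entries (15.4%), again with both genes among them. These shares describe the lists, and the smallest finite fold listed was 2.30 and 2.93, so that a fold over 2 separated no entry from another in these comparisons. A fold over 4 in the lower direction was found for 38 (6.33%) and 66 (9.23%) of the entries. *Optc* passed this fold in both comparisons, and *Fmod* passed it against the No AAA library, at 4.32-fold, and not against the Saline library, at 3.28-fold.

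**Figure D1:**
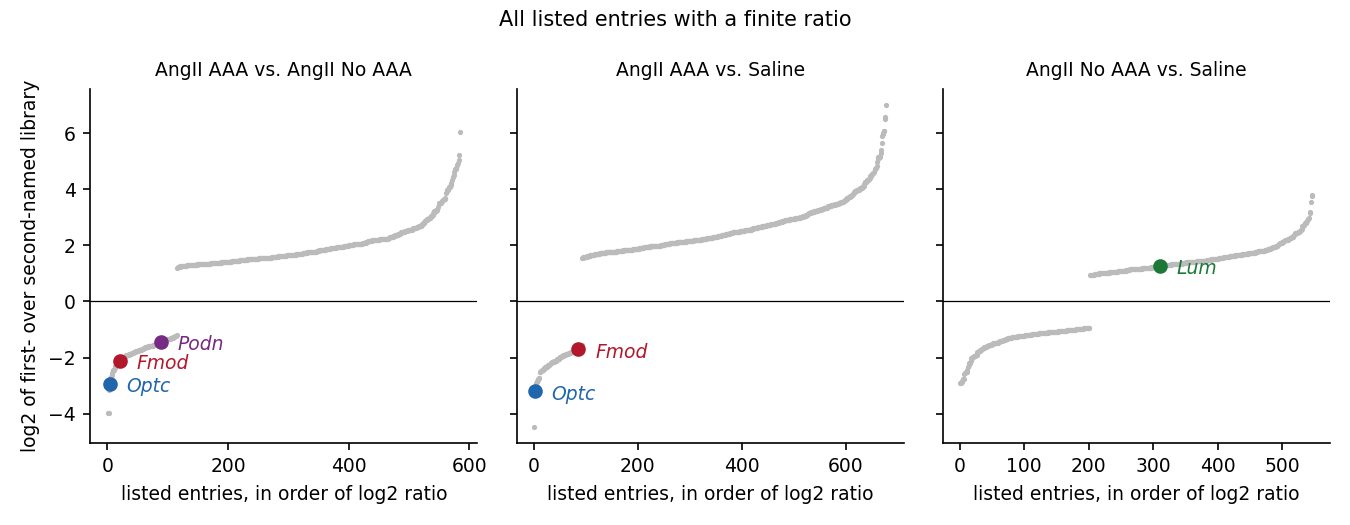
Log2 ratio (vertical axis) of every listed entry with a finite ratio, in order of the ratio (horizontal axis), for the 3 comparisons. Grey points are entries and coloured points are small leucine-rich proteoglycans. *Optc* and *Fmod* lie among the negative ratios of both comparisons with the AAA library, and *Lum* at 1.26 among the positive ratios of No AAA against Saline.

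Neither *Fmod* nor *Optc* was listed for No AAA against Saline, the comparison of AngII infusion without aneurysm against the control. Their levels in these libraries could still be read from the other lists. From list to list, all values of a library were shifted by the same factor, 1.03 for AAA over 385 shared entries, and this factor was multiplied into the AAA against No AAA values to place all libraries on the scale of AAA against Saline.

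On that scale, *Fmod* was at 32.7 FPKM in the Saline library, 43.1 FPKM in the No AAA library, and 9.98 FPKM in the AAA library. Its level was thus highest with AngII and no aneurysm, and the AAA level was 23.2% of that and 30.5% of the Saline level. *Optc* was at 18.6 FPKM in the Saline library, 15.4 FPKM in the No AAA library, and 2.02 FPKM in the AAA library. Its highest level was in the Saline library, and the AAA level was 10.8% of it and 13.1% of the No AAA level.

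The No AAA and Saline libraries, neighbours in both orders, lay close together. *Fmod* was 1.32-fold higher in the No AAA library (log2 ratio 0.40), and *Optc* was 1.21-fold lower there (log2 ratio -0.28). Both folds were smaller than 1.91, the smallest finite fold listed for No AAA against Saline. The folds depended slightly on the scale: on that of No AAA against Saline, the log2 ratios were 0.35 for *Fmod* and -0.32 for *Optc*. With 1 library per cohort, the order of these libraries within each gene cannot be separated from the unmeasured spread between animals.

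The order of the libraries differed between the genes. Over the 544 entries with a value above 0 in every library, 12 (2.21%) had the order of *Fmod*, with the lowest level in AAA and the highest in No AAA. The order of *Optc*, lowest in AAA and highest in Saline, was found for 57 entries (10.5%). The most frequent order, with the lowest level in Saline and the highest in AAA, was found for 420 entries (77.2%). An entry had a value in every library only if different comparisons listed it. These shares therefore describe repeatedly listed entries, *Fmod* and *Optc* among them, and not all genes.

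Because any scaling of a library cancels in a ratio of genes within it, *Fmod* was also expressed relative to *Optc*. The ratio of their FPKM values was 1.76 in the Saline library, 2.80 in the No AAA library, and 4.95 in the AAA library. *Fmod* was the more abundant transcript per length in each library. The ratio in the AAA library was 2.82 times that in the Saline library and 1.76 times that in the No AAA library. The measured levels of the 2 genes thus did not differ between libraries by 1 common factor. The AAA ratio rests on *Optc* at 2.02 FPKM in 1 pooled library, a low level of unknown precision.

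**Figure D2:**
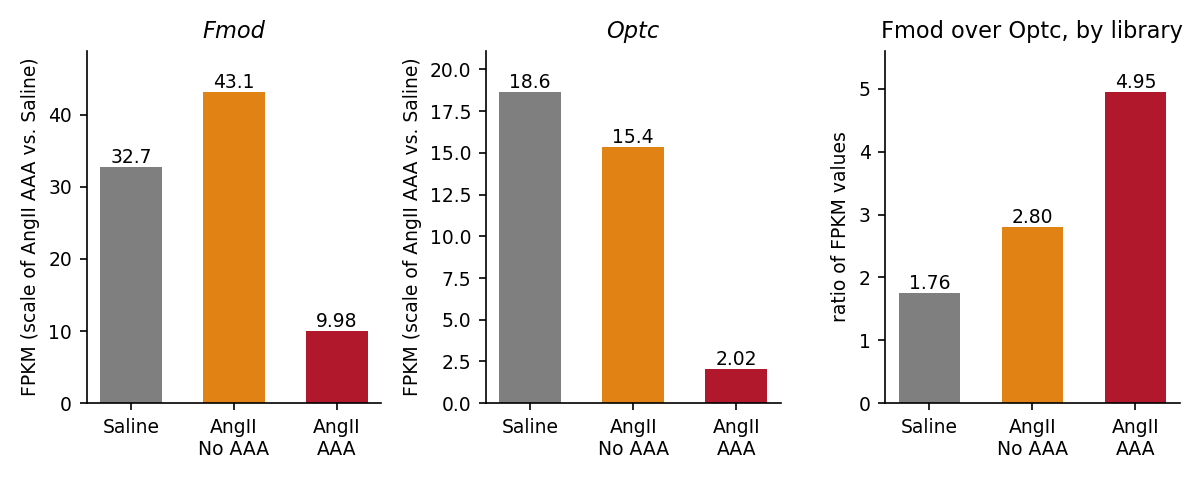
Level of *Fmod* and *Optc* in FPKM on the scale of AAA against Saline (left and middle) and their ratio within each library (right), with 1 bar for each pooled library and no error bars. The AAA bar is the shortest for both genes, at 9.98 and 2.02 FPKM, whereas the ratio is highest there, at 4.95.

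The other genes of the family were mostly not listed. Of 17 small leucine-rich proteoglycan genes in 5 classes, 4 were listed in at least 1 comparison and 13 in none. The unlisted genes included the class I genes *Dcn* and *Bgn*, which encode decorin and biglycan, the widespread members of the arterial wall. For genes outside the lists, the p-value by the authors was at or above 0.05 before adjustment, or no test was made, and their levels are unknown here.

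*Lum* encodes lumican, a class II member with *Fmod* that also binds fibrillar collagen. It was listed only for No AAA against Saline, at 110 FPKM in the No AAA library and 45.8 FPKM in the Saline library, 2.40-fold higher (log2 ratio 1.26). In this comparison a fold over 2 in the higher direction was found for 344 of 564 entries (61%), and *Lum* was number 250 from the highest ratio. Its level in the AAA library could not be read. On the scale of No AAA against Saline, *Fmod* was at 45.6 and 35.7 FPKM and *Optc* at 16.3 and 20.4 FPKM in these libraries, so that *Lum* was the most abundant of these 3 genes per length in both.

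*Podn* encodes podocan, a class V member outside the list of 11 genes above. It was listed only for AAA against No AAA, at 14.4 FPKM in the AAA library and 38.8 FPKM in the No AAA library, 2.70-fold lower (log2 ratio -1.43). *Optc*, *Fmod*, and *Podn* were the members listed there, and all were lower in the aneurysm library, as were 21% of all listed entries. *Optc* and *Fmod* were selected on that direction, and most of the family has no value, so this does not describe the family. For *Podn* the Saline level could not be read.

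Genes that act with these proteoglycans were read from lists of symbols, by count. Most of all listed entries were higher by over 2-fold in the first-named library: 474 of 600 (79%) for AAA against No AAA, 605 of 715 (84.6%) for AAA against Saline, and 61% for No AAA against Saline, so that a short list with every listed gene higher is near this background. Of 9 genes for fibrillar collagens and the fibril-associated collagens that lie on them, none was listed for AAA against No AAA, where *Fmod* had a log2 ratio of -2.11. Against Saline, 3 were listed, all higher in the AAA library, with a median log2 ratio of 2.94 against 2.26 over all listed entries. *Col3a1*, the main chain of type III collagen, was at 717 FPKM in the AAA library and 93.2 FPKM in the Saline library. *Col12a1* and *Col5a2* had log2 ratios of 3.60 and 2.55. For No AAA against Saline, 5 were listed, all higher in the No AAA library, with a median log2 ratio of 2.21 against 1.16 over all listed entries. There *Col1a2*, a chain of type I collagen, was at 456 and 91.3 FPKM.

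Of 18 genes for collagen cross-linking and processing, none was listed for AAA against No AAA, 3 for AAA against Saline, and 7 for No AAA against Saline, each higher in the first-named library, the direction of 84.6% and 61% of all listed entries there. *Lox*, the lysyl oxidase whose cross-linking of collagen fibromodulin is known to modulate, was at 193 FPKM in the AAA library and 16.4 FPKM in the Saline library (log2 ratio 3.56). It was at 120 FPKM in the No AAA library and 17.9 FPKM in the Saline library in the other list (log2 ratio 2.74). *Lox* was therefore higher than in Saline with and without aneurysm, whereas *Fmod* was at 1.32 times its Saline level without aneurysm and at 30.5% of it with aneurysm. *Loxl2*, a related enzyme, had log2 ratios of 2.77 and 2.26, and *Plod2*, a lysyl hydroxylase, of 1.79 and 1.52.

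Of 8 genes for TGF-beta ligands, latent TGF-beta binding proteins, and the TGF-beta-induced matrix protein *Tgfbi*, 2 were listed for AAA against No AAA, both higher in the AAA library. *Tgfb1*, a ligand that fibromodulin can bind, was at 75.5 and 30.5 FPKM (log2 ratio 1.31), and *Tgfbi* had a log2 ratio of 1.52. Both ratios lay below the median of 1.63 over all listed entries. Against Saline only *Tgfb1* was listed, with a log2 ratio of 1.78. For No AAA against Saline, *Ltbp2* and *Tgfb2* were listed, with log2 ratios of 1.14 and 0.96.

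Of 18 genes for proteoglycans of other families, 3 were listed for AAA against No AAA, 4 for AAA against Saline, and 3 for No AAA against Saline, each higher in the first-named library, as were 79%, 84.6%, and 61% of all listed entries. *Srgn*, the serglycin of secretory granules in blood cells, was at 734 FPKM in the AAA library and 81.7 FPKM in the No AAA library (log2 ratio 3.17). *Prg4*, the lubricating proteoglycan lubricin, and *Vcan*, the large hyaluronan-binding versican, had log2 ratios of 2.05 and 1.58 in that comparison.

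Among 29 genes for the synthesis and sulfation of glycosaminoglycans, 3 were listed for AAA against No AAA. *Chst3*, a chondroitin sulfotransferase, was lower in the AAA library, at 3.60 and 8.74 FPKM (log2 ratio -1.28). *Has2*, a hyaluronan synthase, and *Csgalnact1*, which starts chondroitin chains, were higher, with log2 ratios of 1.74 and 1.40. Against Saline *Has2*, *Chst11*, and *Dse* were listed, all higher, with log2 ratios from 1.76 to 2.80, and for No AAA against Saline only *Chst11* was, with a log2 ratio of 1.06.

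Of 16 genes for enzymes known to cleave these or related proteoglycans, 4 were listed for AAA against No AAA, 2 in each direction. *Mmp8*, the neutrophil collagenase, and *Mmp9*, a gelatinase, were higher in the AAA library, with log2 ratios of 4.42 and 3.97. *Adamts8*, a metalloproteinase with thrombospondin motifs, was lower, at 3.57 and 15.3 FPKM (log2 ratio -2.10), close to the ratio of *Fmod* in the same comparison. *Htra1*, a secreted serine protease, was at 39.7 and 106 FPKM (log2 ratio -1.42). Against Saline, *Mmp8*, *Mmp9*, and the membrane-bound *Mmp14* were listed as higher, and for No AAA against Saline *Mmp3*, *Mmp14*, and *Mmp2* were.

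**Figure D3:**
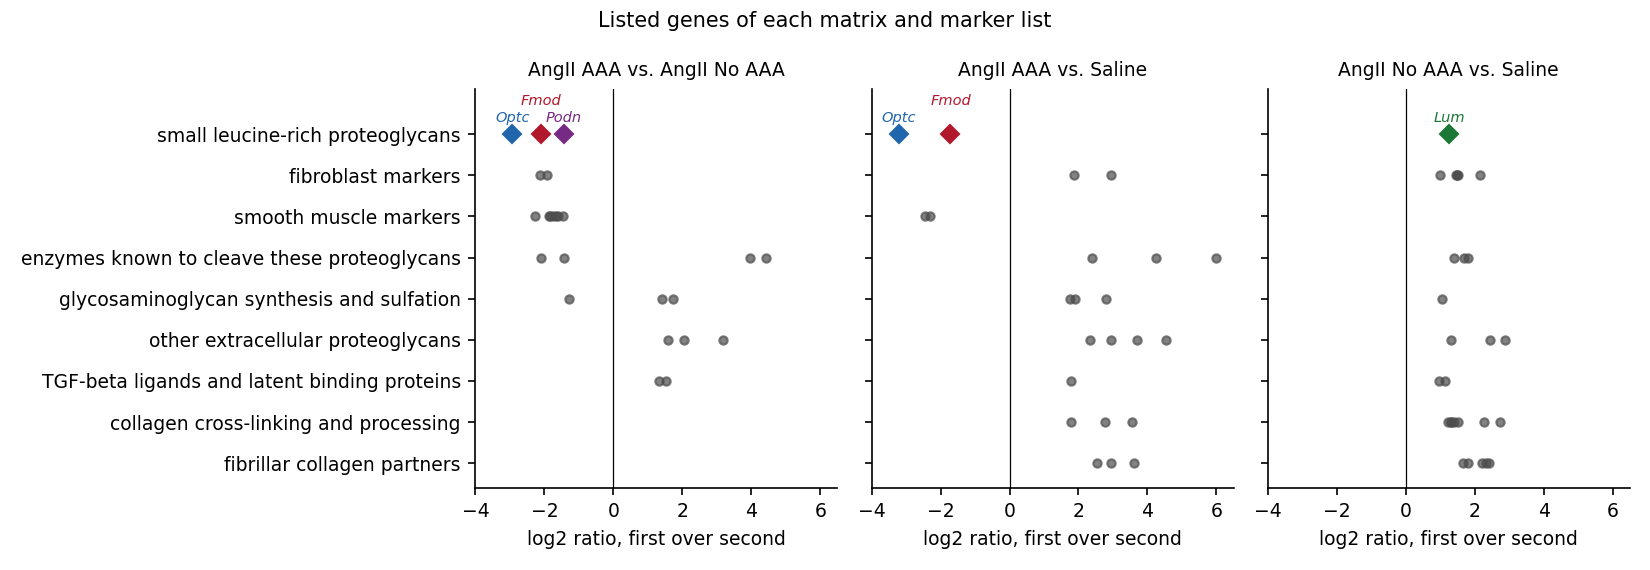
Log2 ratio (horizontal axis, first-named over second-named library) of each listed gene in 8 gene lists and the small leucine-rich proteoglycans, for the 3 comparisons. Circles are genes of a list and diamonds are members of the family. With the AAA library, *Optc* and *Fmod* lie left of 0 in both comparisons, as do the listed smooth muscle markers. For AAA against Saline, the 3 listed genes of each of the collagen lists lie right of 0, and for AAA against No AAA no gene of those lists was listed.

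Markers of other cell types differed between the same libraries. In whole tissue, fewer cells of a type and less RNA per cell cannot be told apart. Of 11 smooth muscle markers, 7 were listed for AAA against No AAA, all lower in the AAA library, as were 21% of all listed entries, with log2 ratios from -2.26 for *Cnn1* to -1.47 for *Myocd* and a median of -1.74. Their summed level was 752 FPKM in the AAA library and 2525 FPKM in the No AAA library. Smooth muscle actin, *Acta2*, was at 304 and 926 FPKM, so that this smooth muscle transcript was abundant in both. The log2 ratio of *Fmod*, at -2.11, lay within the range of these markers, and that of *Optc*, at -2.93, beyond it. For AAA against Saline, *Synpo2* and *Lmod1* were listed as lower, with log2 ratios of -2.45 and -2.32 and summed levels of 38.8 and 201 FPKM, and there *Fmod* was less negative, at -1.71, and *Optc* more, at -3.21. No smooth muscle marker was listed for No AAA against Saline, and neither were *Fmod* and *Optc*. On the scale of AAA against Saline, *Synpo2* was at 49.6 FPKM in the No AAA library and 85.6 FPKM in the Saline library. *Lmod1* was at 82.1 and 115 FPKM. Both were lower in the No AAA library, as was *Optc* (15.4 and 18.6 FPKM), whereas *Fmod* was higher there (43.1 and 32.7 FPKM). The other listed markers had no Saline level.

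Of 11 fibroblast and adventitial markers, 2 were listed for AAA against No AAA, both lower in the AAA library, as were 21% of all listed entries. These markers were *Clec3b* and *Pi16*, with log2 ratios of -2.12 and -1.92 and a summed level of 69.4 and 275 FPKM. Relative to Saline, *Col3a1*, which is also in the collagen list, and *Mfap5* were higher in the AAA library (summed level 772 and 108 FPKM). Of the same list, 5 markers were higher in the No AAA library than in Saline (722 and 264 FPKM). Among all listed entries, 84.6% were higher by over 2-fold for AAA against Saline, and 61% for No AAA against Saline. Fibroblast markers were thus listed in both directions, depending on the comparison and the gene.

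Markers of neutrophils, macrophages, and the adrenal cortex, a gland beside the suprarenal aorta, were higher in the AAA library. For AAA against No AAA, the summed level was 1048 against 38.0 FPKM for 5 of 8 neutrophil markers (*Mmp8* among them), 1583 against 282 FPKM for 6 of 8 macrophage markers, and 476 against 16.3 FPKM for 7 of 7 adrenal cortex markers. Against Saline, 6 neutrophil markers (1150 and 51.8 FPKM) and all 8 macrophage markers (2257 and 214 FPKM) were also higher in the AAA library. So were 6 adrenal cortex markers (455 and 12.9 FPKM). Of all listed entries, 79% were higher by over 2-fold for AAA against No AAA, and 84.6% for AAA against Saline. Macrophage markers were higher in the No AAA library than in Saline too, for 7 of 8 (574 and 216 FPKM). In that comparison, 61% of all listed entries were higher by over 2-fold, and no neutrophil or adrenal cortex marker was listed. Of 8 skeletal muscle markers, 4 were lower in the AAA library than in Saline (59.4 and 265 FPKM). There 15.4% of all listed entries were lower by over 2-fold. In the No AAA library, 7 were lower than in Saline (120 and 688 FPKM). There 184 of 564 listed entries (32.6%) were lower by over 2-fold. None of 6 endothelial markers was listed. No listed marker was at 0 in any library. The part of any of these cell types, or of the adrenal tissue, in the levels of *Fmod* and *Optc* was not tested.

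The profiles most like those of *Fmod* and *Optc* over the 3 libraries were found among 540 single-gene entries. Nearness was the Euclidean distance between log2 FPKM values centred on each gene's mean. The entries had a value above 0 in every library and at least 1 FPKM in the highest. A value in every library required listing in more than 1 comparison. Genes listed in only 1, such as the smooth muscle markers *Acta2* and *Myh11*, could therefore not be ranked. For *Fmod*, the nearest were *Sh3bgr* (distance 0.216), *Susd5* (0.227), *Map3k7cl* (0.280), *Ccdc141* (0.347), and *Ccdc3* (0.364). *Sh3bgr* was at 22.5, 24.3, and 6.61 FPKM in the Saline, No AAA, and AAA libraries. *Optc* was only the 43rd nearest to *Fmod*, at a distance of 1.06.

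For *Optc*, the nearest were *Serpina1d* (0.277), *Casq1* (0.280), *Jph2* (0.768), *Mylk4* (0.809), and *Ccdc141* (0.822). *Casq1*, which encodes the calcium-storing calsequestrin of skeletal muscle, was at 11.7, 9.13, and 1.55 FPKM in the Saline, No AAA, and AAA libraries. *Serpina1d* was at 14.2, 13.1, and 2.02 FPKM, and it belongs to a family of near-identical genes, so that its value is uncertain. *Fmod* was the 22nd nearest to *Optc*. Only *Ccdc141* was among the 5 nearest of both. With 3 points per profile and shared libraries, nearness is a description.

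**Figure D4:**
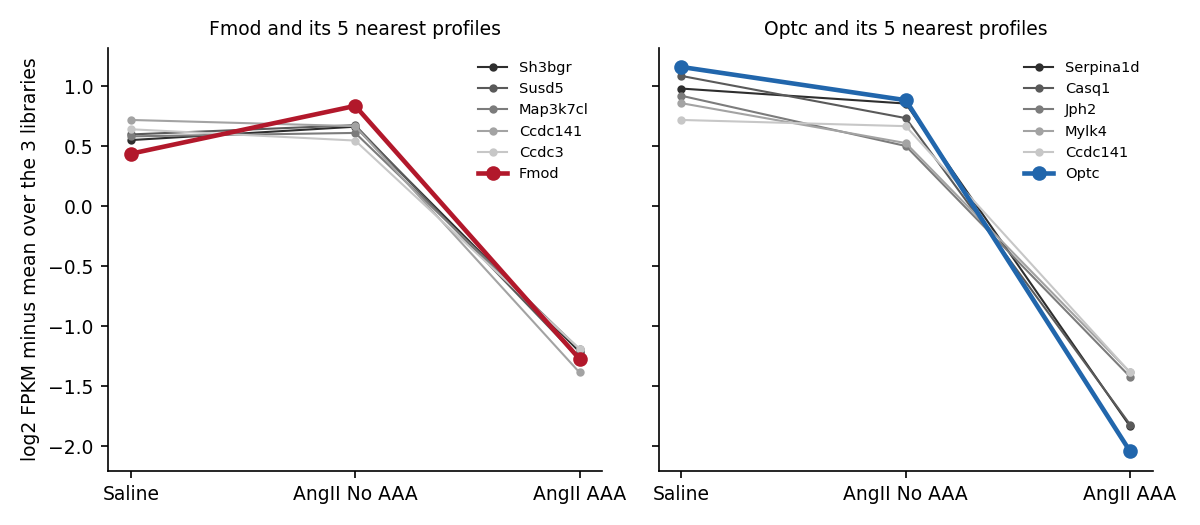
Log2 FPKM minus its mean over the 3 libraries (vertical axis) for *Fmod* and *Optc* (coloured) and the 5 entries nearest to each (grey), by library. All profiles are lowest in the AAA library. *Fmod* is higher in No AAA than in Saline, and *Optc* is highest in Saline.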

How the data were processed

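RNA from suprarenal aortas was pooled by cohort, and 1 library per cohort (35000000 to 43000000 reads, per the series' design text) was sequenced. Per the labels, FastQC, HISAT2, Cufflinks, and Cuffdiff were used, with mm9; versions are not given in the sources used here. For each comparison, the authors deposited a list of genes with an unadjusted p-value under 0.05, giving the FPKM of both libraries. The fold changes, test scores, and p-values of the authors' own comparisons were not used. FPKM values do not give the reads behind a gene, so the precision of each value is unknown. Whether counting used strand is not given in the sources used here.

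Log2 ratios were recomputed from FPKM with no pseudocount. The constant by which a library differed between lists was the median ratio over shared entries. A fold over 2 counted as called. No test was run. Named genes were the listed members of the family, up to 6 examples per gene list by the size of their log2 ratio in AAA against No AAA, then in AAA against Saline, the 5 nearest profiles, and listed genes within 1 Mb. Examples from No AAA against Saline were chosen after their values were seen. The members and lists were chosen with earlier results of these data known. Alternatives were pseudocounts of 1 and 0.1 FPKM, centring, other scales, single-gene entries, a minimum of 1 FPKM in the higher library, and a fold over 4. The calculations were tested on simulated data, in which both libraries of a list were given the same factor. The simulation therefore could not check whether the AAA factor also holds for No AAA values. In the data, the factor from No AAA against Saline into the lists with AAA was 0.914 for No AAA and 0.915 for Saline. AAA values differed by a factor of 1.03 between those lists, so a factor shared by both libraries of every list did not hold exactly. Python 3.11.15, pandas 2.3.3, numpy 2.4.6, and matplotlib 3.10.9 were used.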

Additional observations from a re-analysis of the deposited data

How the results depend on the processing

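An equal pseudocount cannot turn the sign of a ratio, and centring on a positive median only lowers a negative one, so these alternatives bear on the size of the ratios and not on their direction. With a pseudocount of 1 FPKM, the log2 ratios for AAA against No AAA were -2.00 for *Fmod* and -2.43 for *Optc*, and for AAA against Saline -1.62 and -2.70. With a pseudocount of 0.1 FPKM they were -2.10, -2.87, -1.70, and -3.14 in the same order. Centred on the median log2 ratio of the listed entries, 1.63 and 2.26, they were -3.74, -4.55, -3.98, and -5.47. These medians come from lists that hold mostly entries higher in the AAA library and are not medians of all genes.

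The log2 ratio of No AAA over Saline was 0.35 for *Fmod* and -0.32 for *Optc* with values as deposited, and the same to 2 decimals on the scale of No AAA against Saline, an alternative chosen after seeing the data. The order of the libraries was the same in both. On the scale of AAA against No AAA it cannot differ, by construction. With a fold over 4 in place of 2, the share of listed entries past the fold in the lower direction was 6.33% for AAA against No AAA and 9.23% for AAA against Saline, and in the higher direction 11.9% for No AAA against Saline. The other alternatives moved these shares by less than 1.5 times, and 4 members of the family were listed with split symbols too. The ratios could not be recomputed from other lists, since neither gene is listed for No AAA against Saline. No paired analysis was possible because each cohort had 1 library. All values are limited by the pooling and by read counts per gene that FPKM does not give.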

Other observations

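Of 19 genes known from the eye, where opticin was first described, 4 were listed for AAA against No AAA, all lower in the AAA library: *Lhx9*, *Samd7*, *Vax2os*, and *Rp1l1*, with log2 ratios from -2.49 to -2.14, where 126 of the 600 listed entries (21%) were lower. Their levels were low, with a summed level of 3.14 FPKM in the AAA library and 15.7 FPKM in the No AAA library. None of the list was listed in either comparison with Saline, whereas *Optc* was listed against Saline at a log2 ratio of -3.21.

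Of 20 cartilage and tendon markers, the tissues best known for fibromodulin, *Cytl1* was listed in all 3 comparisons. This cytokine-like gene, known from cartilage, had log2 ratios of -1.30 for AAA against No AAA, -2.27 for AAA against Saline, and -1.02 for No AAA against Saline. Of all listed entries, 21%, 15.4%, and 32.6% were lower by over 2-fold in these comparisons. *Cilp* and *Comp*, both cartilage matrix genes, were listed only for No AAA against Saline, as higher in the No AAA library, with log2 ratios of 1.55 and 1.56. In that comparison, 61% of all listed entries were higher by over 2-fold.

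Within 1 Mb of *Fmod* or *Optc*, *Lgr6* was the only other listed gene, with a gap of 938 kb to *Fmod* in the coordinates of the lists. *Lgr6*, a receptor for R-spondins, was at 4.50 FPKM in the AAA library and 19.8 FPKM in the Saline library (log2 ratio -2.14). For No AAA against Saline it was at 9.51 and 21.6 FPKM (log2 ratio -1.18), a comparison in which neither *Fmod* nor *Optc* was listed.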
